A study of Mus musculus with 4 samples.

Results

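The platelet-derived growth factor (PDGF) family in these data comprised the 4 ligand genes Pdgfa, Pdgfb, Pdgfc and Pdgfd and the 2 receptor genes Pdgfra and Pdgfrb. The members were taken by gene symbol, and all 6 were listed in each of the 4 libraries, out of 22716 genes listed in the series. PDGF ligands are secreted as dimers that bind receptor tyrosine kinases at the surface of the receiving cell. PDGF-A and PDGF-C signal mainly through PDGFRα, PDGF-D through PDGFRβ, and PDGF-B through both. PDGF-C and PDGF-D are released in a latent form and are cleaved by extracellular proteases before they can bind. In many tissues PDGFRα marks fibroblast-like mesenchymal cells and PDGFRβ marks mural cells, the pericytes and vascular smooth muscle (VSM) cells that endothelial PDGF-B attracts to growing vessels.

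The libraries were Drop-seq profiles of single cells from the sciatic nerve of wild-type CD1 mice, with 1 library for each group. The uninjured library came from nerves of both sides of adult mice, and the 3 DPI library from the distal segment of nerves of young adult mice that had been resected on one side 3 days earlier. The neonatal FACS library came from mice of postnatal day 3 to 4, sorted for cells with a high Hoechst signal and without propidium iodide, and the neonatal beads library came from mice of postnatal day 2 to 3. The uninjured, 3 DPI and neonatal beads preparations were passed over myelin removal beads, all cells were released with collagenase and trypsin, and how many animals were pooled in each library was not given in the sources used here. No library had a replicate, so no difference between libraries was tested, and age, side, surgery and preparation cannot be told apart between them.

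After filtering, 1838 uninjured, 2163 3 DPI, 2191 neonatal FACS and 5420 neonatal beads cells remained, with a median of 1625, 1792, 1568 and 994 unique molecular identifiers (UMIs) a cell. Cells were clustered without the PDGF genes and classed by markers that held none of them, as mesenchymal-like, VSM/pericyte-like, endothelial-like, Schwann-like and immune-like. In the order uninjured, 3 DPI, neonatal FACS and neonatal beads, these classes held 858, 1186, 617 and 870 mesenchymal-like cells, 182, 82, 130 and 369 VSM/pericyte-like cells, 419, 243, 144 and 483 endothelial-like cells, 359, 142, 1221 and 3660 Schwann-like cells, and 20, 510, 79 and 38 immune-like cells. Library pairs shared 0 to 3 cell barcodes. A level is the UMI count of a gene divided by that of the whole class and given as CPM (per 1000000), and the range printed with it is an exact Poisson 95% interval. A share is the percentage of cells with at least 1 UMI, with an exact Clopper-Pearson 95% interval. All intervals cover counting error only, so they say nothing of variation between animals. Levels are compared within a gene, not between genes.

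**Figure D1:**
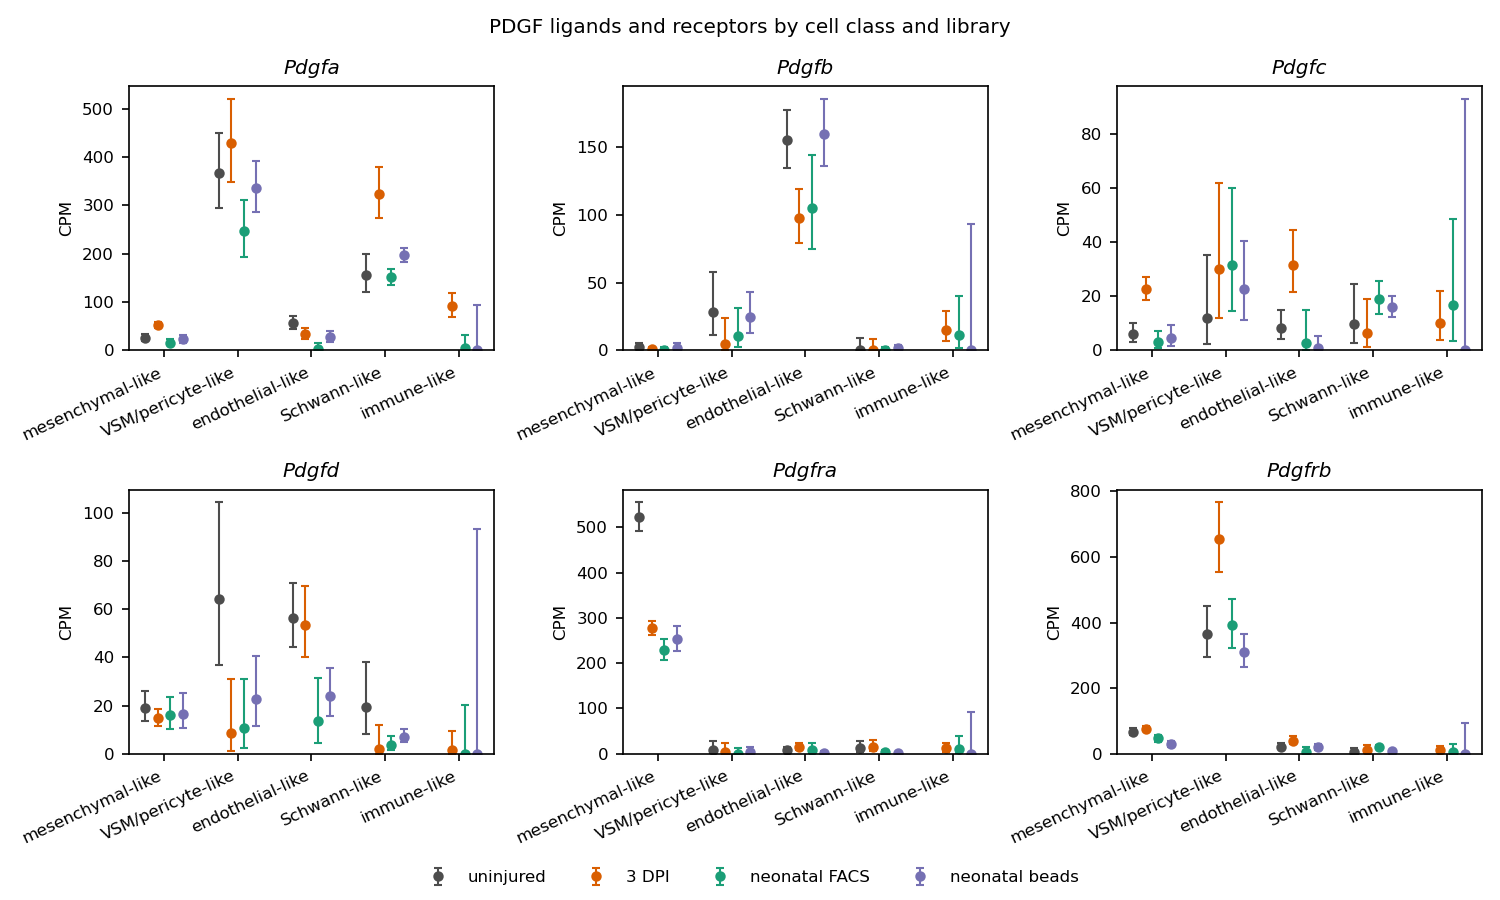
Level (CPM, linear axis from 0) of each PDGF gene in the 5 cell classes of the 4 libraries, for classes of at least 30 cells, with exact Poisson 95% intervals as bars. Pdgfb stood highest in endothelial-like cells in every library, between 97.8 and 159.7 CPM, Pdgfra in mesenchymal-like cells, and Pdgfa and Pdgfrb in VSM/pericyte-like cells.

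Pdgfb (chromosome 15, 79995865 to 80024614 of GRCm38.p6) encodes the ligand that endothelial cells use to attract mural cells, and most of its UMIs lay in endothelial-like cells in each library. Its endothelial-like level was 155 CPM (134.6 to 177.7) in the uninjured library, 97.8 (79.5 to 119) at 3 DPI, 105 (74.9 to 144) in the neonatal FACS library and 159.7 (136 to 186) in the neonatal beads library. These cells held 94.5%, 86.1%, 86.7% and 88.8% of all Pdgfb UMIs of their libraries. A Pdgfb UMI was seen in 121 of 419 uninjured endothelial-like cells (28.9%, 24.6 to 33.5) and in 114 of 483 cells of the neonatal beads library (23.6%, 19.9 to 27.6), at median depths of 1875 and 1390 UMIs. The shares were 24.3% (19.0 to 30.2) of 243 cells at 3 DPI and 19.4% (13.3 to 26.9) of 144 cells in the neonatal FACS library. In Schwann-like cells, taken as the class that should lack the gene, it was seen in 0 of 359 uninjured cells, which allows a share of up to 0.836% at a median depth of 983 UMIs, in 0 of 142 3 DPI cells, which allows up to 2.11%, in 1 of 1221 neonatal FACS cells and in 7 of 3660 neonatal beads cells. The VSM/pericyte-like level ranged from 4.28 to 28.1 CPM over the libraries, and the 3 DPI immune-like level was 15.2 CPM on 9 UMIs.

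Within the uninjured endothelial-like cells, Pdgfb differed between the 3 clusters. The cluster led by Slco1a4, Slc39a8 and Mfsd2a, transporters known from barrier-forming endothelium, had 292 CPM (245 to 346) and a Pdgfb UMI in 49.0% of its 149 cells. The cluster led by Gpihbp1 and Rbp7 had 131 CPM (95.2 to 176) and a UMI in 19.2% of 146 cells, and the cluster led by Selp and Sele, adhesion molecules of venules, had 52.3 CPM (34.8 to 75.7) and a UMI in 16.1% of 124 cells. The 3 intervals did not overlap. The Slco1a4 cluster was 5.59-fold (3.70 to 8.72) above the Selp cluster and 2.23-fold (1.58 to 3.21) above the Gpihbp1 cluster, with median depths of 2171, 2388 and 1494 UMIs in the Slco1a4, Selp and Gpihbp1 clusters. Finer clustering of the neonatal beads cells separated a cluster with Darc, Vwf and Selp among its leading genes. That cluster had 83.1 CPM (46.5 to 137) of Pdgfb against 176 (149 to 206) in the remaining endothelial-like cells, so in both libraries the Selp cluster was the lower.

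**Figure D2:**
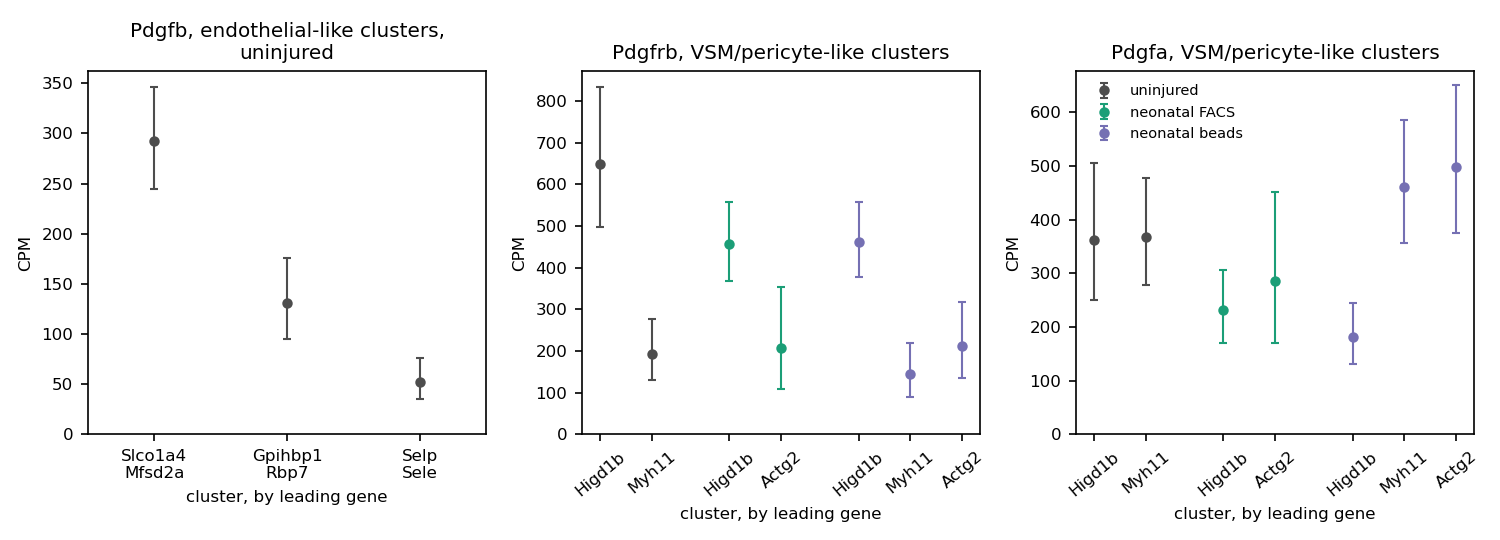
Level (CPM, linear axes from 0) of Pdgfb in the 3 uninjured endothelial-like clusters, and of Pdgfrb and Pdgfa in VSM/pericyte-like clusters found at the finer clustering, each cluster named by a leading gene, with exact Poisson 95% intervals as bars. Pdgfb ranged from 292 down to 52.3 CPM across the endothelial-like clusters, and Pdgfrb was higher in the Higd1b cluster of each library than in its Myh11 and Actg2 clusters.

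Pdgfa (chromosome 5, 138976014 to 139000792) encodes the ligand of PDGFRα best known from epithelia and the glial lineage. It stood highest in VSM/pericyte-like cells, with 366 CPM (294 to 449) uninjured, 428 (348 to 521) at 3 DPI, 247 (192 to 312) in the neonatal FACS library and 336 (286 to 391) in the neonatal beads library. Schwann-like cells came next, with 156 CPM (120.8 to 199.4), 322 (273 to 378), 151 (134.8 to 167.9) and 197 (183 to 211). The intervals of these classes overlapped at 3 DPI and were apart in the other libraries. A Pdgfa UMI was seen in 13.9% of uninjured, 40.8% of 3 DPI, 18.4% of neonatal FACS and 15.4% of neonatal beads Schwann-like cells, at median depths of 983, 1946, 1324 and 914 UMIs. With each cell thinned to 500 UMIs, these shares were 7.89%, 16.5%, 7.38% and 8.63%. The thinned share at 3 DPI was thus above the other 3, which lay close to each other, as for the level. In immune-like cells a UMI was seen in 0 of 20 uninjured cells, which allows up to 15%, in 31 of 510 3 DPI cells (6.08%) at a median depth of 894 UMIs, in 1 of 79 neonatal FACS cells (1.27%) and in 0 of 38 neonatal beads cells, which allows up to 7.89%. Immune-like cells had been chosen as the class that should lack the gene. Lymphoid-like cells of the 3 DPI library, a subset used in their place for Pdgfa, held a UMI in 2 of 77 cells (2.60%, 0.316 to 9.07) at a median depth of 735 UMIs.

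Schwann-like cells, the most numerous class of the neonatal libraries, held 77.0% and 77.9% of the neonatal Pdgfa UMIs, against 23.0% in the uninjured and 25.1% in the 3 DPI library. Uninjured myelinating Schwann-like cells had 195 CPM (119 to 301) on 20 UMIs and non-myelinating Schwann-like cells 144 (105 to 193) on 45 UMIs, so these intervals overlapped. The 3 DPI Schwann-like cells were 2.06-fold (1.53 to 2.80) above all uninjured Schwann-like cells and 2.24-fold (1.59 to 3.20) above the uninjured non-myelinating ones. The summed level of the 6 Schwann cell markers moved the other way, from 10625 CPM uninjured to 3407 CPM at 3 DPI, and Pdgfa stood at 14.7 and 94.5 UMIs per 1000 marker UMIs.

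The 3 DPI Pdgfa UMIs were not spread evenly over the immune-like cells. Among macrophage-like cells, the cluster led by Pf4, Gpnmb, Mmp12 and Arg1 had 172 CPM (127 to 229), with 48 UMIs in 25 of 176 cells. The cluster led by Cd74, H2-Aa and Ccr2 had 17.8 CPM (4.84 to 45.5), with 4 UMIs in 4 of 217 cells, which made the Gpnmb cluster 9.70-fold (3.55 to 37.1) higher. Median depths were 1182 and 840 UMIs. The summed Schwann marker level was 18.0 CPM in the Gpnmb cluster and 17.8 CPM in the Ccr2 cluster, and the VSM/pericyte marker level was 111 and 120 CPM. The part of RNA from other classes in the Pdgfa difference was not tested.

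In mesenchymal-like cells Pdgfa was low in the endoneurial-like subclass and higher in others. At 3 DPI it was 9.94 CPM (5.56 to 16.4) in endoneurial-like cells, 29.3 (20.2 to 41.1) in epineurial-like cells, 56.6 (43.4 to 72.6) in bridge-like cells and 115 (97.2 to 135) in the dividing mesenchymal-like cluster. The shares of endoneurial-like and epineurial-like cells with a UMI were 5.42% (3.06 to 8.77) and 6.03% (3.98 to 8.71) at median depths of 4107 and 2114 UMIs, with intervals that overlapped that of the shallower lymphoid-like cells. Both shares were also near that of all 3 DPI immune-like cells given above. Bridge-like cells, named from Dlk1, Mest and Lrrc15, were 5.70-fold (3.20 to 10.8) above endoneurial-like cells, and the dividing cluster was 2.03-fold (1.50 to 2.78) above the bridge-like cells. The dividing cluster was also the deepest, at a median of 5891 UMIs against 2679 in bridge-like cells, and with each cell thinned to 500 UMIs the order turned, at 87.0 CPM against 100.8 in bridge-like cells. Over all 3 DPI mesenchymal-like cells, the 201 with a UMI of the division genes Mki67 or Top2a had 80.6 CPM (66.9 to 96.3) and the other 985 had 38.6 (32.4 to 45.7), at median depths of 5870 and 2381 UMIs. In the uninjured library the epineurial-like cells split, with 57.4 CPM on 40 UMIs in the cluster led by Inmt, Sfrp4 and Comp and 0 UMIs in the 90 cells of the cluster led by Pi16. The 3 DPI library had the same order, with 52.0 CPM in the Comp cluster and 8.50 CPM in the Pi16 cluster, a ratio of the Pi16 to the Comp cluster of 0.163 (0.0492 to 0.428). Endothelial-like cells had 56.4 CPM of Pdgfa uninjured, 33.6 at 3 DPI, 2.70 on 1 UMI in the neonatal FACS library and 26.9 in the neonatal beads library, while all 9 markers of VSM/pericyte cells, where the gene is highest, also had UMIs in the uninjured endothelial-like cells, at a summed level of 2841 CPM. Across the 3 uninjured endothelial-like clusters Pdgfa ranged from 50.5 to 63.3 CPM, where the summed VSM/pericyte marker level ran from 560.0 to 5597 CPM. In the Selp cluster 10 of the 27 Pdgfa UMIs lay in 1 cell, without which its level was 37.7 CPM. Without its top cell, of 6 Pdgfa UMIs, the Slco1a4 cluster had 51.5 CPM. Endothelial-like cells with UMIs of both Pdgfa and Pdgfrb numbered 7, 10, 0 and 6 in the same order of libraries. The products of the separate shares would give 1.98, 1.17, 0.0139 and 0.472 cells. Where found, these cells had median depths of 11553, 9434 and 6914 UMIs, against 1875, 1953 and 1390 in the class. The part of VSM/pericyte RNA in endothelial-like Pdgfa was not tested.

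**Figure D3:**
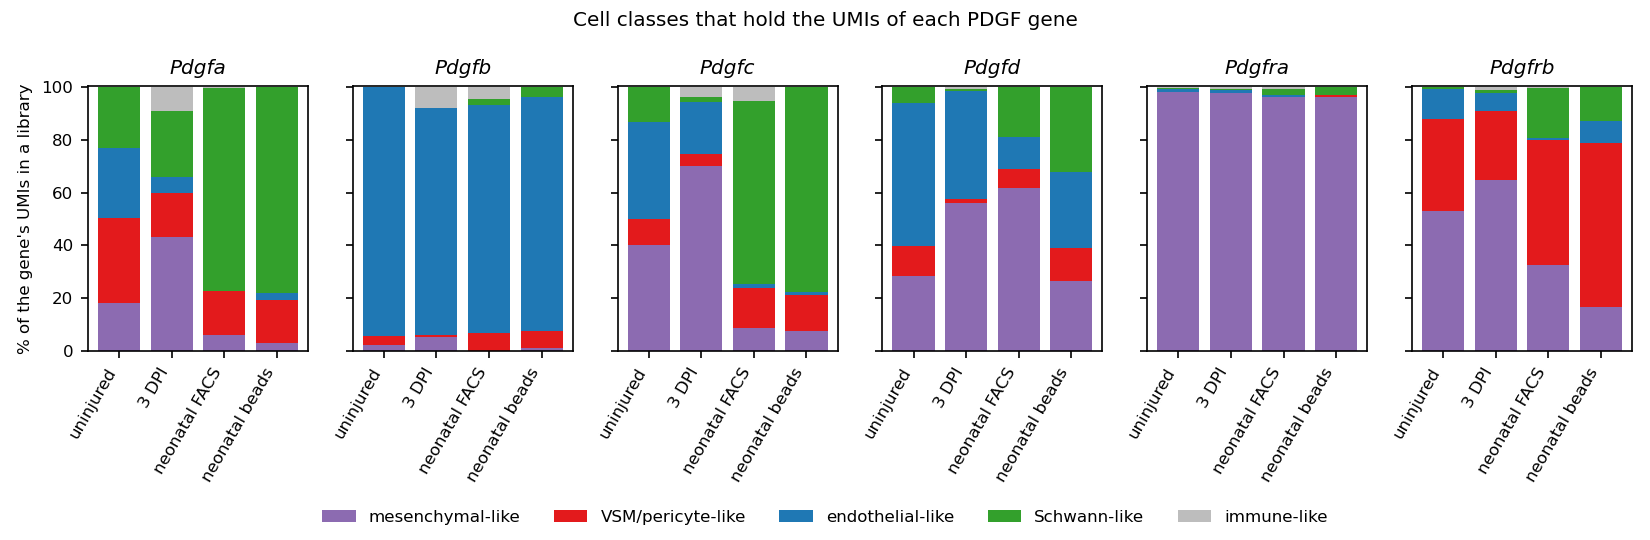
Percentage of each PDGF gene's UMIs (linear axis from 0) held by each cell class, stacked to 100% for each library. Endothelial-like cells held 86.1% to 94.5% of Pdgfb and mesenchymal-like cells 96.1% to 98.2% of Pdgfra in the 4 libraries, while the main holder of Pdgfa, Pdgfc, Pdgfd and Pdgfrb differed between libraries.

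Pdgfc (chromosome 3, 81036416 to 81214040), whose product acts through PDGFRα once cleaved, was sparse, with 30, 161, 59 and 81 UMIs in the kept uninjured, 3 DPI, neonatal FACS and neonatal beads cells. Mesenchymal-like cells had 5.84 CPM (3.02 to 10.2) uninjured, 22.6 (18.6 to 27.2) at 3 DPI, 3.06 (0.994 to 7.15) in the neonatal FACS library and 4.35 (1.60 to 9.47) in the neonatal beads library. The 3 DPI level lay above the intervals of the other 3 libraries. Most of it lay in bridge-like cells, at 48.4 CPM (36.3 to 63.3) with a UMI in 41 of 316 cells, and in the dividing cluster, at 27.6 CPM (19.2 to 38.4). Endoneurial-like cells had 3.98 CPM on 6 UMIs, so bridge-like cells were 12.2-fold (5.24 to 34.7) higher, with a lower median depth of 2679 against 4107 UMIs. Immune-like cells of that library, taken as the class that should lack the gene, held a UMI in 0.784% of 510 cells at a median depth of 894 UMIs.

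Among epineurial-like cells, Pdgfc lay with the Pi16 cluster in both adult libraries, the reverse of Pdgfa. It was 45.7 CPM on 8 UMIs uninjured and 28.9 CPM on 17 UMIs at 3 DPI in the Pi16 cluster, against 5.74 CPM on 4 UMIs and 3.72 CPM on 2 UMIs in the Comp cluster. The ratios of the Pi16 to the Comp cluster were 7.97 (2.14 to 36.2) and 7.77 (1.84 to 69.4). No Pdgfc UMI was found in 417 uninjured endoneurial-like cells, which allows a share of up to 0.719%. In endothelial-like cells the 32 UMIs at 3 DPI lay in 8 cells, 15 of them in 1 cell, without which the level of 31.6 CPM was 18.7. Schwann-like cells held 69.5% and 77.8% of the neonatal Pdgfc UMIs, at 18.8 CPM (13.5 to 25.5) and 15.8 (12.2 to 20.2). In the neonatal FACS library the share of Schwann-like cells with a UMI was 2.95% (2.07 to 4.06) at a median depth of 1324 UMIs. It was 3.80% (0.790 to 10.7) of the 79 immune-like cells at 1938 UMIs, 0.694% (0.0176 to 3.81) of endothelial-like cells at 2036 and 0.810% (0.264 to 1.88) of mesenchymal-like cells at 2065, so the Schwann-like share was apart from the mesenchymal-like one alone. In the neonatal beads library it was 1.61% (1.23 to 2.07), against 0.207% (0.00524 to 1.15) of endothelial-like cells at a greater depth, and the 38 immune-like cells without a UMI allow up to 7.89%.

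Pdgfd (chromosome 9, 6168363 to 6534284) encodes a ligand of PDGFRβ that also needs cleavage. Endothelial-like cells had 56.4 CPM (44.4 to 70.7) and a UMI in 12.9% of cells uninjured, and 53.3 CPM (40.1 to 69.6) and 13.6% at 3 DPI. They held 54.3% and 40.9% of the Pdgfd UMIs of these libraries, and mesenchymal-like cells held 28.3% and 56.1%. The neonatal endothelial-like levels were lower, at 13.5 CPM (4.39 to 31.5) and 24.1 (15.6 to 35.5). Uninjured VSM/pericyte-like cells had 64.3 CPM (36.7 to 104) on 16 UMIs, and the other libraries had 8.56, 10.6 and 22.7 CPM on 2, 3 and 11 UMIs. Immune-like cells, which should lack the gene, held a Pdgfd UMI in 1 of 510 3 DPI cells at a median depth of 894 UMIs, and in 0 of 79 neonatal FACS cells, which allows up to 3.80%. Within the uninjured endothelium, Pdgfd was 78.5 CPM in the Slco1a4 cluster and 80.4 in the Gpihbp1 cluster but 22.4 in the Selp cluster, ratios to the Selp cluster of 3.50 (1.78 to 7.39) and 3.59 (1.76 to 7.77). The Slco1a4 and Gpihbp1 clusters thus differed in Pdgfb while their Pdgfd ratio was 0.977 (0.577 to 1.67).

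Among mesenchymal-like cells, the Pdgfd level of the epineurial-like subclass was 39.0 CPM (27.0 to 54.5) uninjured, 34.6 (24.6 to 47.3) at 3 DPI, 26.3 (14.0 to 45.0) in the neonatal FACS library and 40.5 (16.3 to 83.5) in the neonatal beads library. These 4 intervals overlapped. Endoneurial-like cells had 1.88 CPM on 2 UMIs uninjured, 2.65 on 4 at 3 DPI, 7.26 (1.50 to 21.2) on 3 in the neonatal FACS library and 16.8 (7.70 to 32.0) on 9 in the neonatal beads library. In the beads library they held more of the 23 mesenchymal-like Pdgfd UMIs than the epineurial-like cells, which held 7, and the intervals of these subclasses overlapped. In the uninjured library endoneurial-like cells stood at 0.0656 (0.00743 to 0.270) of the Comp cluster. Bridge-like cells had 15.5 CPM (9.05 to 24.9), above the endoneurial-like cells of the same library by 5.86-fold (1.91 to 23.9). Of the 4 ligands, each of Pdgfa, Pdgfc and Pdgfd was thus lower in endoneurial-like than in bridge-like cells of the 3 DPI library, and Pdgfb had 1 UMI in the endoneurial-like and 0 in the bridge-like cells.

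Pdgfra (chromosome 5, 75151322 to 75198206) was the receptor with nearly all of its UMIs in 1 class, with 98.2%, 97.9%, 96.1% and 96.4% of its UMIs in mesenchymal-like cells. Their level was 523 CPM (492 to 556) uninjured, 277 (263 to 292) at 3 DPI, 229 (206 to 253) in the neonatal FACS library and 253 (227 to 281) in the neonatal beads library. The uninjured level lay above the intervals of the other 3. A Pdgfra UMI was seen in 55.0%, 51.3%, 36.1% and 27.7% of mesenchymal-like cells at median depths of 2074, 2704, 2065 and 1313 UMIs, and with each cell thinned to 500 UMIs in 21.6%, 12.2%, 11.95% and 12.2%. The adult shares were thus close before thinning and apart after it, and the thinned levels, 512 CPM uninjured and 276 CPM at 3 DPI, were apart as the unthinned ones were. The share in endothelial-like cells, which should lack the gene, was 2.15%, 4.94%, 0.694% and 0.207%, at median depths of 1875, 1953, 2036 and 1390 UMIs. In uninjured immune-like cells 3 UMIs lay in 20 cells, where the 6 mesenchymal markers reached a summed level of 15559 CPM.

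The difference between the adult libraries was larger in the endoneurial-like than in the epineurial-like cells. Endoneurial-like cells are the fibroblast-like cells among the axons. They had 655 CPM (607 to 705) uninjured, 268 (243 to 296) at 3 DPI, 283 (234 to 339) in the neonatal FACS library and 324 (277 to 376) in the neonatal beads library. The ratio of 3 DPI to uninjured was 0.410 (0.362 to 0.464). Epineurial-like cells of the outer sheath had 413 CPM (371 to 458), 360.4 (326 to 397), 308 (261 to 361) and 330.0 (250 to 428), with a ratio of 3 DPI to uninjured of 0.873 (0.756 to 1.01). Taken by cluster, both epineurial-like clusters were lower at 3 DPI, at 445 against 577 CPM in the Pi16 cluster, a ratio of 0.771 (0.611 to 0.980), and 268 against 372 CPM in the Comp cluster, a ratio of 0.720 (0.583 to 0.886). Perineurial-like cells, which form the barrier around each fascicle, were lower, at 165 CPM (100.6 to 254) uninjured, 145 (118 to 175) in the neonatal FACS library and 177 (147 to 212) in the neonatal beads library. No perineurial-like cluster was found at 3 DPI. There bridge-like cells had 259 CPM (229 to 290) and dividing mesenchymal-like cells 229 (204 to 257), and the ratio of bridge-like to endoneurial-like cells was 0.963 (0.825 to 1.12).

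The order of the subclasses differed between the adult libraries. Uninjured endoneurial-like cells were 1.76-fold (1.53 to 2.04) above the Comp cluster of epineurial-like cells and 3.98-fold (2.56 to 6.55) above perineurial-like cells. At 3 DPI the endoneurial-like cells stood at 1.003 (0.827 to 1.22) of the Comp cluster. Among epineurial-like cells, the Pi16 cluster was above the Comp cluster by 1.55-fold (1.22 to 1.96) uninjured and 1.66-fold (1.35 to 2.05) at 3 DPI, the same order in both. The summed level of the 6 mesenchymal markers, collagens and small proteoglycans among them, also differed between the libraries, at 95746 CPM uninjured and 49774 CPM at 3 DPI. Per 1000 marker UMIs there were 5.47 Pdgfra UMIs uninjured and 5.57 at 3 DPI, but 1.74 in the neonatal FACS and 2.71 in the neonatal beads library.

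**Figure D4:**
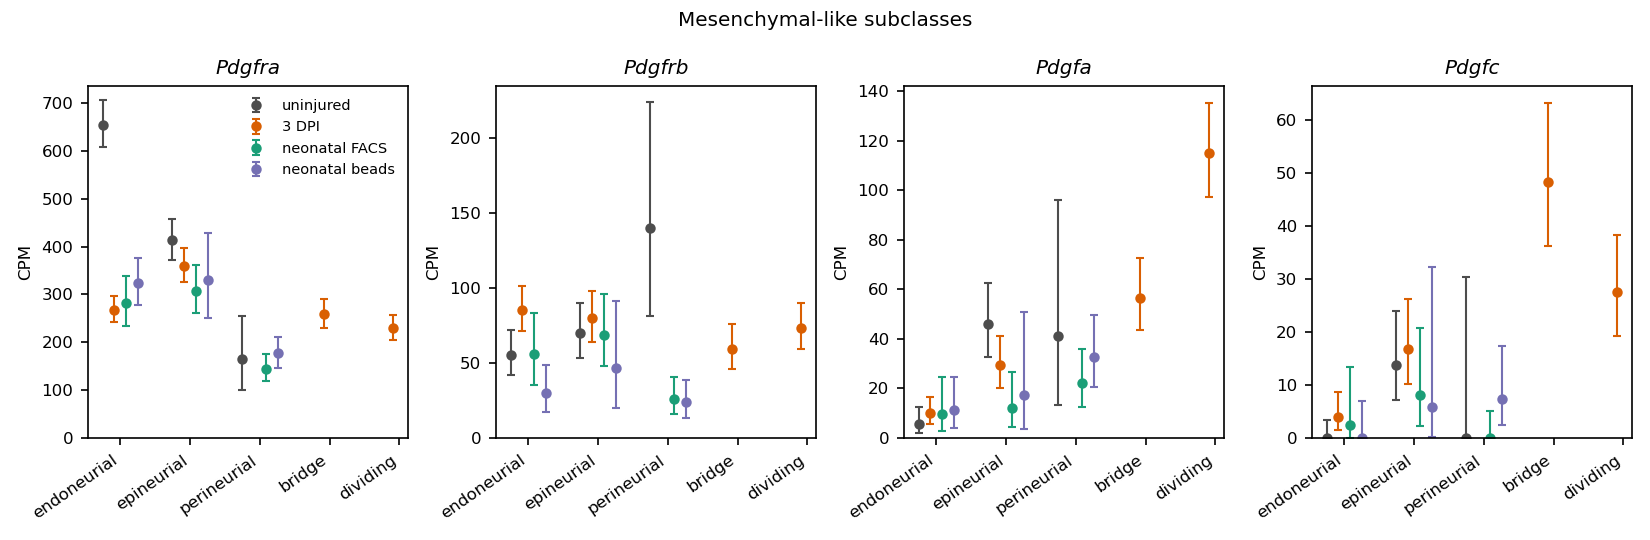
Level (CPM, linear axes from 0) of Pdgfra, Pdgfrb, Pdgfa and Pdgfc in mesenchymal-like subclasses of at least 30 cells, by library, with exact Poisson 95% intervals as bars. Uninjured endoneurial-like cells stood highest for Pdgfra at 655 CPM, and the bridge-like and dividing cells, named in the 3 DPI library alone, stood above its endoneurial-like cells for Pdgfa and Pdgfc.

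Pdgfrb encodes the receptor that mural cells need to respond to PDGF-B, and it stood highest in VSM/pericyte-like cells of each library. Their level was 366 CPM (294 to 449) uninjured, 655 (555 to 767) at 3 DPI, 391 (322 to 471) in the neonatal FACS library and 311 (263 to 365) in the neonatal beads library. A UMI was seen in 37.9%, 62.2%, 46.9% and 30.1% of these cells at median depths of 1219, 2335, 1832 and 1142 UMIs, against 4.30%, 6.17%, 1.39% and 2.48% of endothelial-like cells at 1875, 1953, 2036 and 1390. The 3 DPI level was 1.79-fold (1.37 to 2.35) above the uninjured one. The uninjured class held a Higd1b cluster at 649.6 CPM and a Myh11 cluster at 194 CPM, described below. The 3 DPI class did not split, and the part of this mix in the ratio was not tested. Thinning each cell to 500 UMIs, a random draw that left out cells with fewer, gave 613 CPM uninjured and 595 CPM at 3 DPI. Thinning keeps few Pdgfrb UMIs and no interval was computed for it, so these values do not settle whether the levels differed. Per 1000 UMIs of the VSM/pericyte markers, there were 10.99 Pdgfrb UMIs uninjured and 21.9 at 3 DPI.

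Finer clustering split the VSM/pericyte-like cells into a cluster with the pericyte gene Higd1b among its leading genes and clusters led by the contractile genes Myh11 or Actg2, in all libraries but the 3 DPI one. Pdgfrb was 649.6 CPM (497 to 834) in the uninjured Higd1b cluster against 194 (131 to 276) in the Myh11 cluster, a ratio of 3.36 (2.13 to 5.38), at median depths of 954 and 1454 UMIs. In the neonatal beads library it was 462 CPM against 144 in the Myh11 cluster and 212 in the Actg2 cluster, ratios of 3.20 (1.99 to 5.39) and 2.18 (1.38 to 3.58). In the neonatal FACS library it was 457 CPM against 206 in the Actg2 cluster of 25 cells, a ratio of 2.21 (1.23 to 4.31). Pdgfa did not follow it. The ratio of the Higd1b to the Myh11 cluster for Pdgfa was 0.984 (0.624 to 1.53) uninjured and 0.394 (0.261 to 0.588) in the neonatal beads library, and that to the Actg2 cluster was 0.807 (0.461 to 1.47) in the neonatal FACS library. The order of these clusters for Pdgfrb was therefore the same in 3 libraries, while Pdgfa was higher in the contractile clusters of the neonatal beads library and not separated in the uninjured and neonatal FACS libraries.

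Mesenchymal-like cells held Pdgfrb at a lower level, 66.6 CPM (55.9 to 78.8) uninjured, 75.4 (68.0 to 83.4) at 3 DPI, 46.5 (36.7 to 58.3) in the neonatal FACS library and 29.0 (20.7 to 39.5) in the neonatal beads library. Being numerous, they still held 52.9% and 64.8% of the Pdgfrb UMIs of the uninjured and 3 DPI libraries, against 35.1% and 26.3% in VSM/pericyte-like cells. Endoneurial-like cells had 55.5 CPM (42.3 to 71.6) uninjured and 85.5 (71.4 to 102) at 3 DPI, a ratio of 1.54 (1.12 to 2.13), so in these cells Pdgfrb was higher at 3 DPI and Pdgfra lower. The Pi16 epineurial-like cluster had the same directions, with a Pdgfrb ratio of 2.67 (1.07 to 8.63) on 5 uninjured UMIs. In the Comp cluster the Pdgfrb ratio was 1.04 (0.687 to 1.57). Uninjured perineurial-like cells had 139.9 CPM (81.5 to 224) on 17 UMIs, against 26.2 and 23.8 CPM in the neonatal libraries. The VSM/pericyte markers reached 1325 CPM in those uninjured cells against 339 and 186 CPM, and the part of VSM/pericyte RNA in this difference was not tested. In the neonatal FACS library, 30 of 440 myelinating Schwann-like cells had a Pdgfrb UMI (6.82%, 4.65 to 9.59), at 41.1 CPM (28.1 to 58.0). Their median depth was 771 UMIs, and endothelial-like cells of that library gave 1.39% at 2036 UMIs. The VSM/pericyte markers summed to 73.2 CPM in the myelinating Schwann-like cells, with 561 Pdgfrb UMIs per 1000 marker UMIs against 20.2 in VSM/pericyte-like cells. In the neonatal beads library 0 of 33 myelinating Schwann-like cells had a UMI, which allows up to 9.09%.

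Cells with UMIs of both receptors were found among mesenchymal-like cells, 67 of 858 uninjured, 168 of 1186 at 3 DPI, 31 of 617 in the neonatal FACS library and 15 of 870 in the neonatal beads library. The product of the separate shares would give 63.3, 119, 22.0 and 10.2 cells. The cells with both were deeper than their class, with medians of 2911, 7437, 4983 and 2453 UMIs against 2074, 2704, 2065 and 1313, and the part of depth in the counts above the product was not tested. In VSM/pericyte-like cells, Pdgfa and Pdgfrb were seen together in 28 of 182 uninjured, 31 of 82 3 DPI, 26 of 130 neonatal FACS and 26 of 369 neonatal beads cells. The products were 22.4, 26.1, 19.2 and 30.98. Cells with both had median depths of 1693, 3572, 3283 and 1885 UMIs, against 1219, 2335, 1832 and 1142 in the class. The part of depth was not tested. PDGFRβ is not the main receptor of PDGF-A. The pairs of a ligand and its main receptor were rare in VSM/pericyte-like cells. Pdgfa with Pdgfra was seen in 2, 1, 0 and 1 of them, and Pdgfb with Pdgfrb in 2, 1, 2 and 0.

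The comparison of 3 DPI with uninjured asked which cells of the injured nerve held more or less of each member. With 6 genes in 5 classes there were 30 pairs, of which 20 had at least 10 UMIs in both libraries together. In endothelial-like cells 1 of 6 measured members was 2-fold or more apart, Pdgfc at 3.82 (1.88 to 8.40) with 15 of its 32 3 DPI UMIs in 1 cell, where 18.0% of all measured genes were. In VSM/pericyte-like cells 2 of 4 were, Pdgfc at 2.49 (0.567 to 14.9) on 3 uninjured UMIs and Pdgfd at 0.133 (0.0149 to 0.566) on 2 3 DPI UMIs, against 29.7% of all genes. In Schwann-like cells it was Pdgfa of 2 measured, at 2.06, against 35.6% of all genes, and in endoneurial-like cells Pdgfra of 3, at 0.410, against 29.2%. None of 5 was in epineurial-like cells, against 16.1%. Over the 5 classes, 5 of the 20 pairs were past 2-fold, a share near those of all genes.

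Within the 2-fold limits, endothelial-like Pdgfb was lower at 3 DPI, at 0.631 (0.491 to 0.805), and VSM/pericyte-like Pdgfrb was higher, at 1.79. The part of the mix of Higd1b and Myh11 cells in the Pdgfrb ratio was not tested. With cells thinned to 500 UMIs, Pdgfb was 126 CPM uninjured and 58.0 at 3 DPI, in the same direction. The thinned Pdgfrb values, given above, were close to each other and carried no interval. The endothelial-like Pdgfd ratio was 0.945 (0.653 to 1.36) and the VSM/pericyte-like Pdgfa ratio 1.17 (0.872 to 1.57), both with 1 inside the interval. The 3 DPI endothelial-like cells formed 1 cluster with Selp, Lrg1 and Plvap among its leading genes, so the uninjured clusters had no counterparts to compare. Of these cells, the 37 with an Mki67 or Top2a UMI had 69.9 CPM of Pdgfb (46.8 to 100.4) and the other 206 had 117 (91.3 to 148). Their median depths were 6761 and 1691 UMIs, and the intervals overlapped. In the neonatal beads library the same split gave 153 CPM (113 to 202) with and 163 (135 to 195) without such a UMI.

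**Figure D5:**
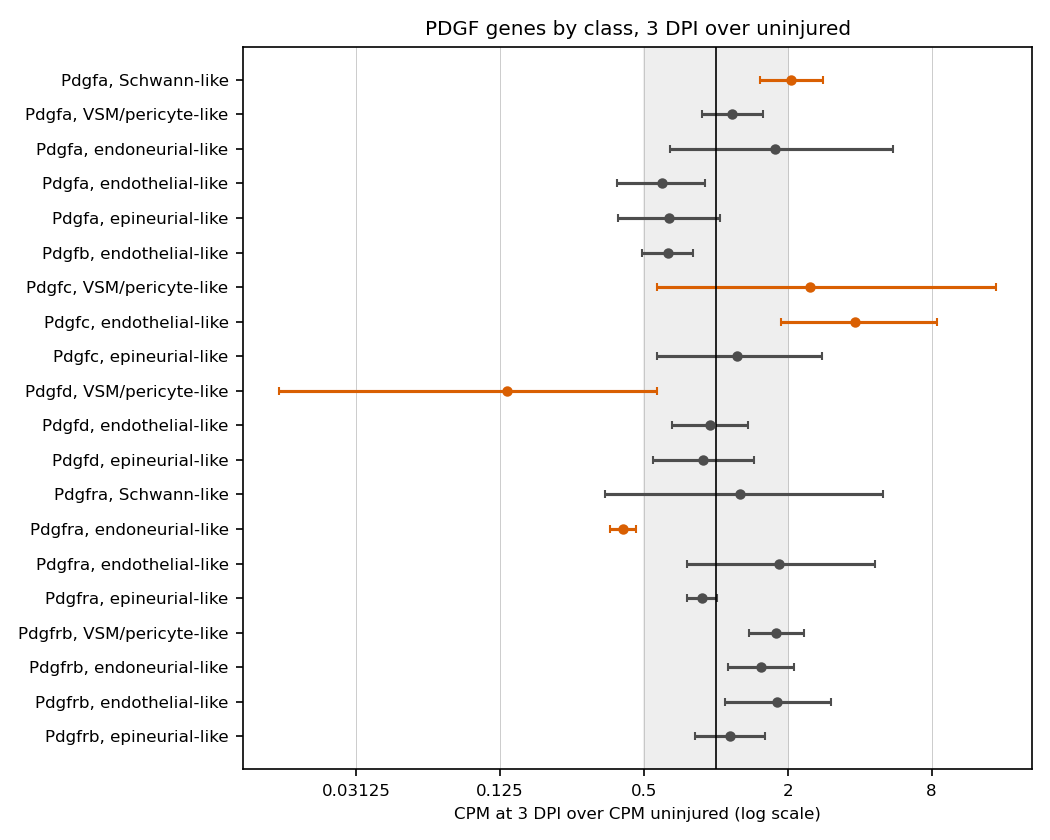
Ratio of the 3 DPI to the uninjured level for the 20 measured pairs of gene and class (log axis), with exact conditional 95% intervals as bars, the 2-fold limits shaded and the 5 pairs past them in orange. Pdgfra in endoneurial-like cells was the lower pair with the narrowest interval, at 0.410, and Pdgfa in Schwann-like cells the higher one, at 2.06.

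The neonatal libraries were set against the same uninjured library, so their ratios share it with each other and with those of 3 DPI. In the neonatal FACS library 24 pairs were measured and 12 were past 2-fold, where 28.9% of all genes were in the endothelial-like class, 34.2% in the VSM/pericyte-like, 30% in the Schwann-like, 30.3% in the endoneurial-like and 26.8% in the epineurial-like class. Of the 24, 10 were lower, against 16.8%, 12.7%, 13.6%, 14.5% and 11.9% of all genes in the same order. In the neonatal beads library 25 pairs were measured and 11 were past 2-fold, against 24.2%, 29.7%, 34.1%, 29.0% and 29.9% of all genes in that order of classes. Of the 25, 10 were lower, against 12.3%, 10.7%, 16.8%, 13.7% and 13.1%. Several of the lower pairs rested on 1 to 3 neonatal UMIs. With each cell thinned to 500 UMIs, 12 pairs were measured in each comparison, and 3 were past 2-fold for the neonatal FACS and 1 for the neonatal beads library. Pdgfra in endoneurial-like cells was lower in both, at 0.432 (0.352 to 0.526) and 0.494 (0.416 to 0.585), as were Pdgfd in endothelial-like cells, at 0.239 (0.0755 to 0.584) and 0.426 (0.260 to 0.678), and Pdgfd in VSM/pericyte-like cells, at 0.164 (0.0307 to 0.575) and 0.352 (0.148 to 0.808). Endothelial-like Pdgfb was 0.680 (0.470 to 0.961) and 1.03 (0.835 to 1.27). Thinned, its levels were 153 CPM in the neonatal FACS and 223 CPM in the neonatal beads library against 126 CPM uninjured, so the direction turned for the FACS library. Schwann-like Pdgfa was 0.963 (0.736 to 1.28) and 1.26 (0.976 to 1.65).

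The neonatal preparations were of nearly the same age, and 6 of the 21 pairs measured in both differed by 2-fold or more between them, where 15.8% of all genes did in the endothelial-like class, 19.6% in the VSM/pericyte-like, 13.2% in the Schwann-like, 15.6% in the endoneurial-like and 19.5% in the epineurial-like class. Endothelial-like Pdgfa was lower in the FACS library, at 0.1003 (0.00245 to 0.607) on 1 UMI, and Schwann-like Pdgfrb higher, at 2.60 (1.60 to 4.25). The Schwann-like class was mixed differently, with 440 of 1221 cells myelinating in the FACS and 33 of 3660 in the beads library. Most FACS Schwann-like cells with a Pdgfrb UMI were myelinating, and the part of this mix in the ratio was not tested. The other 4 pairs were lower and rested on 2 or 3 UMIs in the FACS library. Thinned, 2 of 9 measured pairs were past 2-fold. The levels of the best covered pairs were closer, with ratios of 0.765 (0.671 to 0.872) for Schwann-like Pdgfa, 1.26 (0.976 to 1.62) for VSM/pericyte-like Pdgfrb and 0.874 (0.685 to 1.11) for endoneurial-like Pdgfra.

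The proteases that cleave PDGF ligands were read in endoneurial-like, epineurial-like, endothelial-like, Schwann-like and VSM/pericyte-like cells, from a list of 7 genes. Plat, the tissue plasminogen activator that cleaves PDGF-C, reached its highest level, 530.1 CPM, in 3 DPI endoneurial-like cells, and Plau, the urokinase that cleaves PDGF-D, 203 CPM in uninjured epineurial-like cells. Furin, a convertase of PDGF-A and PDGF-B precursors, was 94.1 CPM at 3 DPI against 29.2 uninjured in endoneurial-like cells, a ratio of 3.23, and 104 against 24.1 in Schwann-like cells, a ratio of 4.31. Of all genes, 9.7% were 2-fold or more higher in the endothelial-like class, 16.4% in the VSM/pericyte-like, 19.7% in the Schwann-like, 19.4% in the endoneurial-like and 11.3% in the epineurial-like class. In endoneurial-like cells 3 of 7 measured proteases were that much higher and none lower, and in epineurial-like cells none of 6 was apart. In endothelial-like cells Pcsk6 alone of 7 was, at a ratio of 0.399, where 8.28% of all genes were that much lower. In Schwann-like cells Furin alone of 4 was higher. In VSM/pericyte-like cells both measured proteases were, Furin at 55.6 CPM against 24.1 and Plat at 94.2 CPM on 22 UMIs against 4.02 on 1 UMI.

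Partners of the receptors at the membrane, a list of 6 genes, were read in the same classes, and none was 2-fold or more lower at 3 DPI in any of them. In endoneurial-like cells 3 of 6 were 2-fold or more higher, against 19.4% of all genes, among them the integrin subunits Itgb3, at 227 CPM against 28.2, and Itgav, at 213 against 69.6. In endothelial-like cells 4 of 6 were, against 9.7% of all genes, with Itgb3 at a ratio of 3.63, while Nrp1, a co-receptor, stood at 0.865 and S1pr1 at 0.871. The median ratio of the list in endothelial-like cells was 2.55, against 1.02 over all genes. In these cells the summed mesenchymal marker level was 1859 CPM uninjured and 2475 CPM at 3 DPI. The summed VSM/pericyte marker level was 2841 and 1880 CPM. The part of RNA from other classes in these ratios was not tested. In Schwann-like cells 2 of 5 were higher, Nrp1 at 3.46 and Cspg4 at 3.09, in epineurial-like cells 2 of 6, Cspg4 at 6.39 and Itgb3 at 2.10, and in VSM/pericyte-like cells none of 3, against 19.7%, 11.3% and 16.4% of all genes.

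Of the 32 adaptors and effectors of the receptors, 5 were higher and 2 lower by 2-fold or more among 31 measured in endoneurial-like cells, with Stat3 at 2.82 and the PI3-kinase subunit Pik3r1 at 0.298. Both shares were below those of all genes in that class, 19.4% higher and 9.8% lower. The higher and lower counts were 0 and 1 of 32 for the endothelial-like class, 7 and 0 of 25 for the VSM/pericyte-like, 2 and 5 of 28 for the Schwann-like and 1 and 0 of 31 for the epineurial-like class. In that order, 9.7% and 8.28%, 16.4% and 13.3%, 19.7% and 15.9%, and 11.3% and 4.8% of all genes were higher and lower.

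Negative regulators, a list of 13, were higher in 5 of 12 measured in endoneurial-like cells and lower in none, with the adaptor Dok1 at 6.48 and the Ras pathway inhibitor Spred1 at 4.09, from 102 to 416 CPM. In Schwann-like cells 2 of 10 were higher and the ERK phosphatase Dusp6 was lower, at 0.150. In endothelial-like cells 1 of 13 was higher, in epineurial-like cells 2 of 13, and in VSM/pericyte-like cells 3 of 10 with Dusp6 lower, at 0.107. Of all genes, 19.4% were higher in the endoneurial-like, 19.7% in the Schwann-like, 9.7% in the endothelial-like, 11.3% in the epineurial-like and 16.4% in the VSM/pericyte-like class, so the Schwann-like count of higher genes was near the share of all genes. The shares of all genes that were lower were 9.8% in the endoneurial-like, 15.9% in the Schwann-like and 13.3% in the VSM/pericyte-like class.

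The 12 immediate early genes, which growth factor receptors and other stimuli switch on within minutes, were lower by 2-fold or more at 3 DPI in each class, 10 of 12 in endothelial-like and endoneurial-like cells, 12 of 12 in VSM/pericyte-like cells, 11 of 12 in Schwann-like cells and 8 of 12 in epineurial-like cells. Of all genes, 8.28% were that much lower in the endothelial-like class, 9.8% in the endoneurial-like, 13.3% in the VSM/pericyte-like, 15.9% in the Schwann-like and 4.8% in the epineurial-like class. The median ratios of the 12 genes were 0.360, 0.247, 0.188, 0.143 and 0.465 in the same order of classes, against 1.02 to 1.17 over all genes. Fos in endoneurial-like cells was 10313 CPM uninjured and 1688 CPM at 3 DPI. These genes also answer to cell dissociation, and the part of dissociation in these ratios was not tested.

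Over 37 profiles of at least 30 cells of a subclass in a library, the genes most like each member by the Pearson correlation of log2(CPM + 10) were read among 13285 genes with at least 50 UMIs. The profiles share libraries, depths and cells of like origin, so these values describe the libraries and carry no p. Nearest to Pdgfb were Dll4 (r = 0.94), Scarf1 (0.93), Foxf1 (0.93), Efcab4a (0.92) and Arhgef5 (0.91), and nearest to Pdgfra were Dcn and Serpinf1 (0.95 each), Clmp and Pdpn (0.94 each) and Cpxm1 (0.93). Nearest to Pdgfrb were Rtn4rl1 (0.88), Angpt1 (0.85), Bmp5 (0.84), Susd2 and Nfatc4 (0.83 each). Pdgfd was most like Fzd4 (0.82) and Hoxa5 (0.79), followed by Ptprg, Lnx1 and Adarb1 (0.78 each), Pdgfa most like Hspb2 (0.79), Tbx2 (0.76), Arhgef17 (0.75), Ccdc160 (0.75) and Fstl3 (0.74), and the sparse Pdgfc had no gene above 0.65, the value of Mtrf1, followed by Uros (0.64), Slc37a4 (0.62), Gng12 (0.62) and Rpl5 (0.61). Between members, r was 0.55 for Pdgfa and Pdgfc, 0.51 for Pdgfb and Pdgfd and -0.41 for Pdgfa and Pdgfra.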

How the data were processed

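Cells were profiled by Drop-seq from 4 preparations of mouse sciatic nerve, 1 library each. The authors aligned the reads with the Drop-seq Alignment Cookbook, against the mouse build mm 10 per the submitters' processing notes, and the deposited values are UMI counts per gene and cell barcode, for 2000 (uninjured), 2500 (3 DPI), 2500 (neonatal FACS) and 6200 (neonatal beads) barcodes. The version of the aligner they ran was not given in the sources used here. Libraries held 4513814, 8123103, 5110171 and 7634799 UMIs. Classes with fewer UMIs have wider intervals.

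Cells with under 200 genes, over 10% mitochondrial or over 5% hemoglobin UMIs were removed, as was the 5% of each library with the highest doublet score (scrublet in scanpy 1.11.5), so doublets may remain. Counts were normalized with scran 1.30.0 and clustered with Seurat 5.3.0 in R 4.3.3 (2000 variable genes without the members, 20 components, resolution 0.4, the neonatal libraries together), giving 35 clusters. The authors' own cell assignment was not used here, and shares may differ from theirs for that reason. Clusters were named from fixed marker lists by thresholds set after the clusters were seen, and a Schwann-like neonatal cluster led by Cdkn1c, Ntm and Pou3f1 kept no subtype name. UMIs were summed by class and library in Python 3.11.15 (numpy 2.4.6, scipy 1.17.1, pandas 2.3.3). A gene was measured in a ratio with at least 10 UMIs in both groups together, in classes of at least 30 cells in both, and called at 2-fold. A group with 0 UMIs was set to 3.

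The members and gene lists were chosen with earlier results of these data known. Named were the 6 members, the 5 genes most correlated with each, and in the pathway lists, counted whole, those with the 2 highest and 2 lowest ratios. Of these, not every one is printed, and the highest level of a protease was named after it was seen. Clusters compared within a library, by leading genes, were likewise chosen after they were seen. The alternatives tried were other cell filters, no doublet removal, other scaling and resolution, the members kept in the clustering, each cell classed from its own markers, thinning, and other fold and UMI limits. The ratio and interval code was tested on simulated data. Gene positions are those of RefSeq on GRCm38.p6.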

Additional observations from a re-analysis of the deposited data

Results flagged for a closer look

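The ratio of the neonatal to the uninjured level pointed in opposite directions by 2-fold or more in different classes for 3 genes. With 1 library a group, the difference was not tested. Pdgfc in the neonatal FACS library was 2.63 times the uninjured level in VSM/pericyte-like cells (0.657 to 15.1, on 9 and 3 UMIs) and 0.326 in endothelial-like cells (0.00758 to 2.25, on 1 and 11 UMIs). Pdgfrb in the neonatal FACS library was 4.20 times the uninjured level in Schwann-like cells (1.10 to 35.7, on 44 and 2 UMIs) and 0.248 in endothelial-like cells (0.0286 to 0.979, on 2 and 29 UMIs). Myelinating cells were 440 of 1221 neonatal FACS and 81 of 359 uninjured Schwann-like cells, and the part of this mix was not tested. Pdgfd in the neonatal beads library was 8.95 times the uninjured level in endoneurial-like cells (1.85 to 85.1, on 9 and 2 UMIs) but 0.426 in endothelial-like, 0.352 in VSM/pericyte-like and 0.365 in Schwann-like cells. On the higher side of each, the uninjured level rested on 2 or 3 UMIs.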

How the results depend on the processing

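No paired analysis was possible because each group had 1 library, and for the same reason no replicate could be left out. Over 36 levels and counts under their alternatives, 275 of 300 values kept within the limits set for a change and 25 moved. With a 3-fold limit the pairs past it numbered 2 for 3 DPI over uninjured, 4 for neonatal beads over uninjured and 2 for neonatal FACS over beads, and with at least 30 UMIs 3, 5 and 1, and 6 for neonatal FACS over uninjured. With each cell classed from its own markers, the VSM/pericyte-like levels were lower, for Pdgfa 290.0 CPM uninjured and 346 at 3 DPI and for Pdgfrb 263 and 458, and 8 pairs passed 2-fold at 3 DPI. Thinned to 500 UMIs a cell, endothelial-like Pdgfb was 126, 58.0, 153 and 223 CPM in the order uninjured, 3 DPI, neonatal FACS and neonatal beads, VSM/pericyte-like Pdgfd 34.7 uninjured and 0 at 3 DPI and in the neonatal FACS library, mesenchymal-like Pdgfc 0 and Pdgfra 274 in the neonatal FACS library, and uninjured VSM/pericyte-like Pdgfrb 613. Thinning also left 3, 1 and 2 pairs past 2-fold for neonatal FACS over uninjured, beads over uninjured and FACS over beads. Thinning keeps few UMIs of these genes, which limits it, and the cause of the other moves was not tested.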
